A study of Homo sapiens with 12 samples.

Results

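Ribosome biogenesis and nucleolar genes encode the proteins that make ribosomes in the nucleolus, and 45 of them were followed here by name across the arrays of one drug experiment. The list was drawn up from the pathway's genes with earlier results of these data known, and older symbols on the array's annotation were counted. Of the 45 genes, 33 were tested among 8021 genes in all. RRP12 and RRP9 fell below the filter on low values, and NOP56, DKC1, BOP1 and PPAN were covered only by probe sets annotated to several genes. For the remaining 6 genes, NOP58, GNL3, LYAR, DDX18, EBNA1BP2 and NOB1, the annotation used named no probe set, so their signals were not analysed.

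The RNA came from K562 cells, an established human line of chronic myeloid leukaemia origin with the BCR-ABL1 fusion kinase. The arrays fell into 3 groups of 4, which were cells given 0.05 µM nilotinib (AMN107), cells given 0.5 µM imatinib (STI571) and cells given the solvent DMSO, each for 24 h. Nilotinib and imatinib are related inhibitors of the ABL kinase, and the labels call each dose the drug's IC50. All 3 groups are the same line in the same medium, the doses of the drugs differ, and the labels do not state whether arrays of a group are separate cultures. The p-values therefore describe the spread between these arrays alone, which may be technical.

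Ribosome production begins in the nucleolus, where RNA polymerase I transcribes a long precursor of the ribosomal RNAs. Small nucleolar RNAs, held in box C/D and box H/ACA particles, guide the chemical modification of that precursor while large assemblies of helicases, scaffold proteins and nucleases cut and fold it into the small and large subunits. Growing cells make these factors in quantity, and many of their genes are known targets of the transcription factor MYC, which in cells with BCR-ABL1 is maintained by the kinase's signalling.

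The deposited MAS5 signals had a trimmed mean near 500 on every array, so the arrays were on a common scale. The median signal of an array was nevertheless higher with nilotinib (179 ± 12.1) and imatinib (142 ± 8.72) than with DMSO (119 ± 2.15; SD, n = 4 each). Pearson's r between arrays of a group ranged over the tested genes from 0.941 to 0.961 with nilotinib, from 0.968 to 0.972 with imatinib and from 0.976 to 0.981 with DMSO. On 4 arrays the actin control had more than 3.5 times as much 3' as 5' signal (replicates 1 and 2 of nilotinib, 5 and 6 of imatinib). The K562 markers rose with both drugs in 7 of the 8 tested, and 8 of 8 were above the filter. Their summed signal was 82918 to 91765 on nilotinib arrays, 74425 to 82620 on imatinib arrays and 42557 to 47974 on DMSO arrays. Of lymphoid markers, 4 of 6 with a probe set were above the filter and summed to 495 to 980 with nilotinib, 382 to 715 with imatinib and 572 to 682 with DMSO. Of monocyte and granulocyte markers 1 of 7 was above it, LYZ, and the 7 summed to 1962 to 2719, 2111 to 2845 and 2989 to 3266 on the nilotinib, imatinib and DMSO arrays, while 2 of 5 fibroblast markers were above it, with sums of 700 to 773, 324 to 622 and 308 to 566. The part of these differences in the results below was not tested.

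Most of the ribosome biogenesis genes were lower in K562 cells treated with either drug. With nilotinib 28 of the 33 tested members fell, 1 rose (POLR1B) and 4 did not pass the test. With imatinib 26 fell, 0 rose and 7 did not pass. The threshold for a call was a limma adjusted p of 0.05 over all 8021 genes, of which 23.5% were called lower and 34.7% higher with nilotinib, and 17.3% lower and 22.0% higher with imatinib. The 28 members make 84.8% of the 33 and the 26 make 78.8%. When DMSO replicate 10 was left out, 1 member, POLR1B, rose with imatinib. RNA was taken from all cells together, so fewer cells expressing a gene and less of its RNA per cell cannot be told apart.

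The falls were large for part of the list. The median log2 change of the 33 members was -0.90 with nilotinib and -0.64 with imatinib, where the medians of all genes tested were 0.15 and 0.09. A fall of at least 1 on the log2 scale, which is a halving of signal or more, was called for 13 members with nilotinib and for 5 with imatinib, where 5.42% and 2.77% of all genes met the same rule. On 27 members all 4 nilotinib arrays lay below all 4 DMSO arrays, a pattern found in 20.9% of all genes, and for imatinib this held for 26 members against 17.6% of all genes. The opposite pattern was found for 0 members with either drug, and for 29.8% of all genes with nilotinib and 21.5% with imatinib. Centring each array on its median moved the median of all genes to -0.37 with nilotinib and -0.13 with imatinib, and the member medians to -1.42 and -0.87. The offset of 16 added to each signal before the log makes changes of dim genes look smaller than they are, and 4 arrays a group limit the precision.

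**Figure D1:**
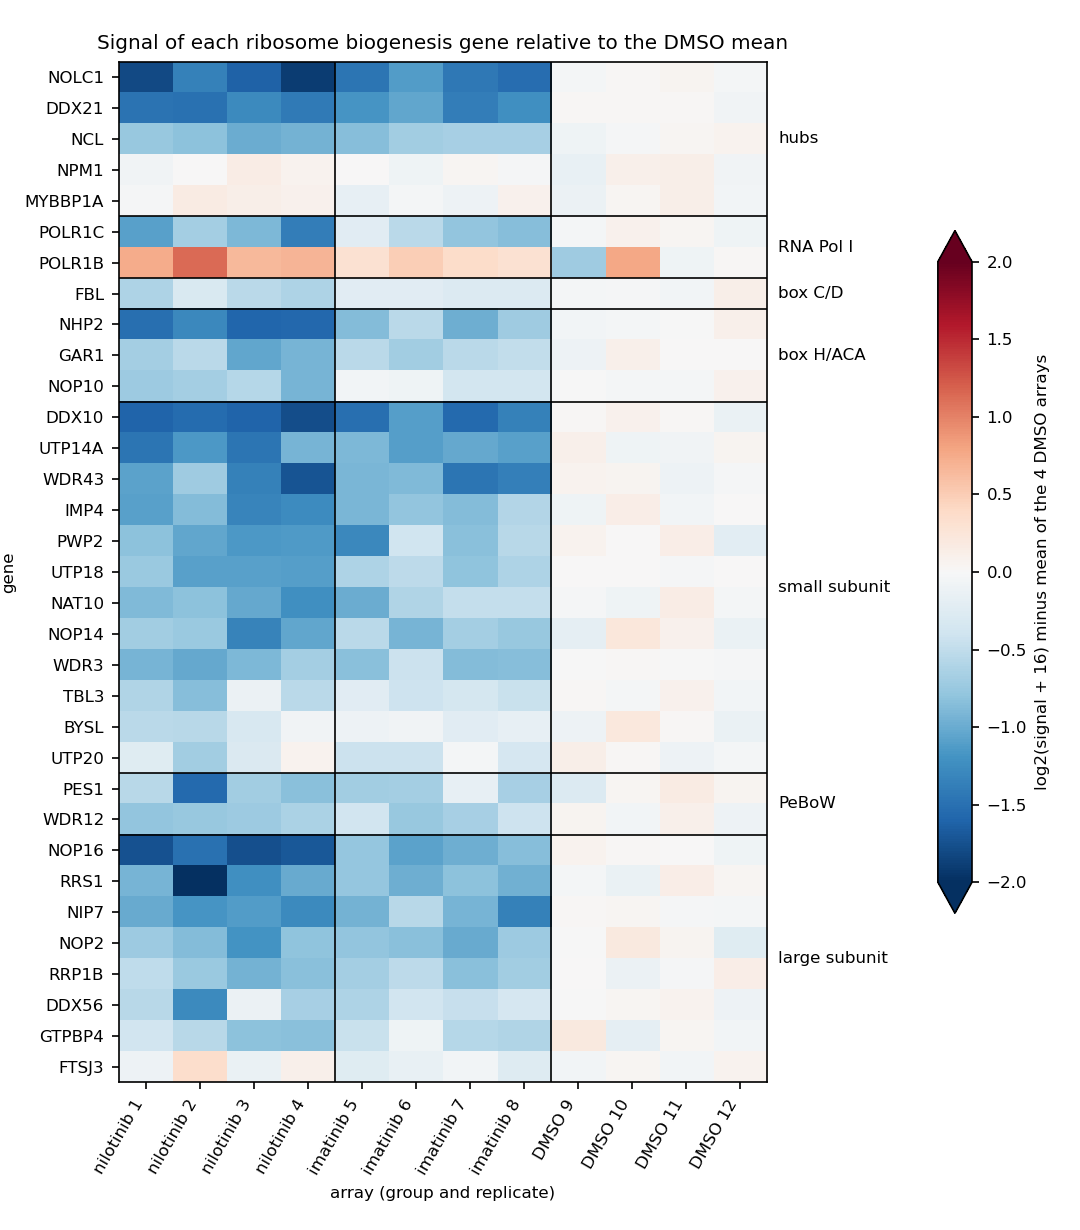
Signals of the 33 tested members on the 12 arrays as log2(signal + 16) minus each gene's mean over the DMSO arrays, with genes grouped by role in rows and nilotinib, imatinib and DMSO arrays in columns. Most rows are lower on the drug arrays than on the DMSO arrays, while POLR1B, NPM1 and MYBBP1A are not, and FTSJ3 lies just below DMSO on the imatinib arrays and overlaps it on the nilotinib arrays.

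**Figure D2:**
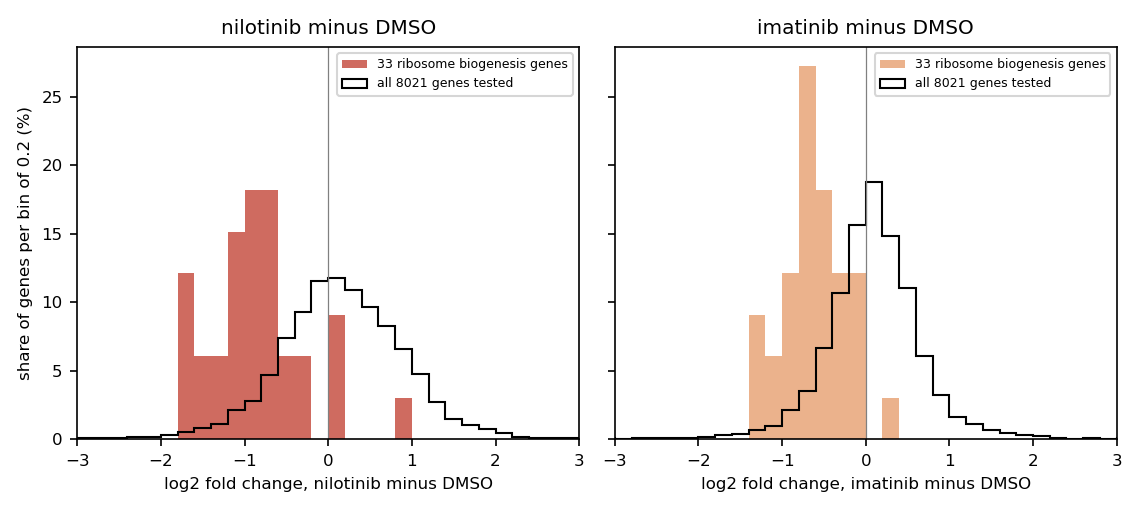
Histograms of log2 changes, as a share of genes per bin, for the 33 members (filled) and all 8021 tested genes (outline), for nilotinib minus DMSO and imatinib minus DMSO. The member medians are -0.90 with nilotinib and -0.64 with imatinib, against 0.15 and 0.09 for all tested genes.

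The promoters of the listed members were also read, including those of members not tested for change. The E-box CACGTG is the site that dimers of MYC and MAX bind best, and it is its own reverse complement, so one search covers both strands. RefSeq windows on GRCh38.p14, from 250 bases before to 50 after a start, were found for 38 of the 45 members and not for RRP12, RRS1, DDX18, NOP58, RRP1B, BOP1 and NOLC1. CACGTG was present in 20 of these 38 genes (52.6%), against 13.1% of the 6589 tested genes with a window and 10.9% of 15843 protein-coding genes. Counted by window, it was in 21 of the 47 member windows (44.7%) and in 8.34% of the 22199 windows of protein-coding genes. The looser pattern CANNTG, which includes CACGTG, was present in 81.6% of the member genes and 67.3% of the tested genes.

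Promoters are shown for 3 members, those of largest fall with nilotinib among the members that held CACGTG and fell with both drugs. Each printed window holds the motif once, at a different distance from the start. A second DDX21 window, chr10:68955920-68956219, held CACGTG 0 times and is not printed. The base at the start of transcription is counted as 0, positions before it are negative, and capitals mark CACGTG. The DDX21 window lies at chr10:68956397-68956696 on the plus strand with the motif beginning at -31. The UTP14A window lies at chrX:129905914-129906213 on the plus strand with the motif at -241, and the WDR43 window at chr2:28894417-28894716 on the plus strand with the motif at 3.
DDX21: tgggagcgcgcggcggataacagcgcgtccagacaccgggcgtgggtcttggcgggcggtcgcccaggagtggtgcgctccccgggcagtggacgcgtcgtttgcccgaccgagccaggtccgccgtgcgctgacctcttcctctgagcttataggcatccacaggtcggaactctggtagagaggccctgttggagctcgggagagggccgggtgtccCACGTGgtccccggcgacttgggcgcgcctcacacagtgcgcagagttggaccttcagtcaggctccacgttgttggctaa
UTP14A: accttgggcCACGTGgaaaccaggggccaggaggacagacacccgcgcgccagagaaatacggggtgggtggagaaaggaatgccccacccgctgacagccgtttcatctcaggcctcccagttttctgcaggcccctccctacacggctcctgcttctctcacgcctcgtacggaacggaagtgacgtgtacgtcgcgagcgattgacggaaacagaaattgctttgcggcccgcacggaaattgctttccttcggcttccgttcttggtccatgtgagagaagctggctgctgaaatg
WDR43: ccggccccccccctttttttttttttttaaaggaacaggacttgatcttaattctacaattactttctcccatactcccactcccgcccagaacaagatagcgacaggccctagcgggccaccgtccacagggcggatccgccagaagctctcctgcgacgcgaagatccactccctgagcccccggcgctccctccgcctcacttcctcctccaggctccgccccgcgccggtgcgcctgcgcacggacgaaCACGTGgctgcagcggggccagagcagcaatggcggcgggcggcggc

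In all, 26 members were called lower with both drugs, 23 of them had a window, and 13 of those held CACGTG, at 16 sites of which 12 lay within 50 bases of the start. Sites from 6 more of them are shown as examples of the motif close to the start. Up to 12 bases are given on each side on the gene's own strand. Other close sites, such as UTP18 at 4 and IMP4 at 15, are not shown, nor is a second NOP10 site at -170. FBL (chr19:39846356-39846385, minus strand, offset 6), NOP10 (chr15:34343130-34343159, minus strand, offset -11), NAT10 (chr11:34105602-34105631, plus strand, offset -15), NOP14 (chr4:2963374-2963403, minus strand, offset 15), PES1 (chr22:30591880-30591909, minus strand, offset 13) and PWP2 (chr21:44107388-44107417, plus strand, offset 1) read as follows.
FBL: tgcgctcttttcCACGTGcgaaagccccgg
NOP10: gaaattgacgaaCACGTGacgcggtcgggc
NAT10: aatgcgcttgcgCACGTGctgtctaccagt
NOP14: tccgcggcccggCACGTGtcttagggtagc
PES1: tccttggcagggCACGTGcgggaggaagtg
PWP2: tgagctgcggcaCACGTGcgacggccgtga
Of 16 tested members with CACGTG, 14 were called lower with nilotinib and 13 with imatinib, with median log2 changes of -0.93 and -0.64. Of 14 with a window and no CACGTG, 11 and 10 were called lower, with medians of -0.80 and -0.58. Among all tested genes 28.1% of those with the motif and 23.8% of those without it were called lower with nilotinib, and 22.3% and 17.3% with imatinib. A match describes these letters in this window and is not a measured binding site.

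Among the nucleolar hubs, the abundant multifunctional proteins of the nucleolus, 3 of 5 fell with each drug. Of all genes tested, 23.5% were called lower with nilotinib and 17.3% with imatinib. NOLC1 is a scaffold that shuttles small nucleolar particles between nucleolus and Cajal bodies. Its signal was 1315, 1807, 1492 and 1223 on the nilotinib arrays, 1672, 2122, 1708 and 1607 on the imatinib arrays, and 4476, 4720, 4804 and 4503 on the DMSO arrays. Both drug groups lay far below every DMSO array, and the log2 change was -1.67 ± 0.11 with nilotinib and -1.38 ± 0.11 with imatinib (SE; limma adjusted p = 1.20e-10 and 3.36e-09). DDX21 is an RNA helicase that binds ribosomal DNA and the precursor RNA. Its signals were 2235, 2195, 2554 and 2313 with nilotinib, 2729, 3023, 2373 and 2651 with imatinib, and 6289, 6350, 6332 and 5912 with DMSO. The arrays of each drug were all below the DMSO arrays, by -1.42 ± 0.07 with nilotinib and -1.21 ± 0.07 with imatinib (adjusted p = 1.03e-11 and 1.81e-10).

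Nucleolin and nucleophosmin, the best known nucleolar proteins, gave different pictures. NCL, nucleolin, a histone chaperone and RNA-binding protein, had signals of 4772, 4555, 4030 and 4178 with nilotinib, 4460, 4971, 5075 and 5086 with imatinib, and 7579, 7956, 8315 and 8469 with DMSO. It fell without overlap between each drug and DMSO, by -0.88 ± 0.07 and -0.72 ± 0.07 on the log2 scale (adjusted p = 2.57e-09 and 7.18e-08). NPM1, nucleophosmin, a chaperone of ribosome export, had 16439, 17268, 19142 and 18038 with nilotinib, 17270, 16241, 17612 and 16935 with imatinib, and 15588, 18554, 18571 and 16315 with DMSO on its brightest probe set, 200063_s_at. These groups overlapped throughout, and the changes of 0.04 ± 0.07 and -0.02 ± 0.07 did not pass the test (adjusted p = 0.619 and 0.869). The other NPM1 probe sets were called lower with both drugs in a fit of every named probe set on its own without a filter, in which 13.5% of 20107 probe sets were called lower with nilotinib and 9.34% with imatinib. Probe set 221691_x_at averaged 9283 ± 420 with nilotinib, 10502 ± 368 with imatinib and 14868 ± 854 with DMSO (SD, n = 4 each), which are log2 changes of -0.68 and -0.50 (adjusted p = 1.79e-07 and 1.20e-05). Probe set 221923_s_at changed by -0.55 and -0.38 (adjusted p = 2.85e-05 and 0.00161). NPM1 has many near-identical pseudogenes and its probe sets can bind related transcripts, so its direction is uncertain, and with the mean of its probe sets or with median centring its change with nilotinib was -0.40 or -0.48. The remaining hub, MYBBP1A, a repressor of RNA polymerase I, averaged 482 ± 27.3 with nilotinib, 436 ± 33.2 with imatinib and 454 ± 34.0 with DMSO and did not pass (0.08 ± 0.11 and -0.06 ± 0.11, adjusted p = 0.54 and 0.731), although with median centring its nilotinib value was -0.44.

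**Figure D3:**
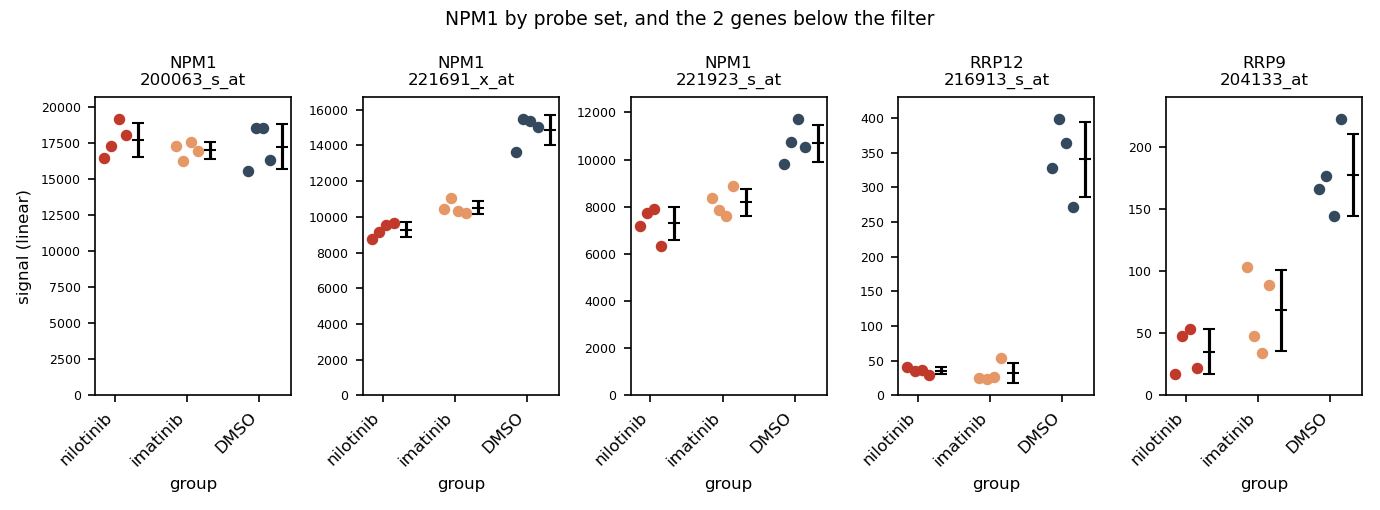
Linear signals on nilotinib, imatinib and DMSO arrays (left to right) for the 3 NPM1 probe sets and for RRP12 and RRP9, the genes below the filter, with a point for each array and bars for the mean and SD. The NPM1 probe sets 221691_x_at and 221923_s_at are lower with both drugs while 200063_s_at overlaps between groups, and RRP12 and RRP9 are highest with DMSO.

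The subunits of RNA polymerase I on the list moved in different directions. POLR1C, a subunit shared by polymerases I and III, had 490, 649, 558 and 393 with nilotinib, 899, 720, 601 and 578 with imatinib, and 1020, 1115, 1083 and 994 with DMSO. Both drug groups were below all DMSO arrays, by -1.01 ± 0.15 and -0.60 ± 0.15 on the log2 scale (adjusted p = 1.01e-05 and 0.00278), and its other probe set, 207515_s_at, was also called lower with both. POLR1B, the next to largest polymerase I subunit, was read by 220113_x_at, a probe set of a kind that can bind other transcripts. It had 468, 618, 438 and 448 with nilotinib, 341, 389, 356 and 341 with imatinib, and 161, 477, 257 and 278 with DMSO. The nilotinib and DMSO arrays overlapped because of 1 DMSO array at 477. POLR1B rose with nilotinib by 0.80 ± 0.22 (adjusted p = 0.00418) and was not called with imatinib (0.36 ± 0.22, adjusted p = 0.201). The rise was not called with median centring or without the 4 arrays of high actin ratio, where it was as low as 0.28.

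Of the genes for proteins of small nucleolar particles, the tested ones, FBL, NHP2, GAR1 and NOP10, were called lower with both drugs. NOP56, outside the tested genes, was not called with imatinib. FBL, fibrillarin, the methyltransferase of box C/D particles, had 4113, 5125, 4360 and 4119 with nilotinib, 5368, 5390, 5219 and 5233 with imatinib, and 6116, 6237, 6073 and 6870 with DMSO. The 3 groups did not overlap, and the log2 changes were modest at -0.52 ± 0.07 and -0.25 ± 0.07 (adjusted p = 5.53e-06 and 0.008). NOP56, another core box C/D protein, was covered by probe sets annotated together with the small nucleolar RNAs and the microRNA in its introns. The brighter one, 200875_s_at, averaged 1558 ± 108 with nilotinib, 2519 ± 273 with imatinib and 2649 ± 161 with DMSO (SD, n = 4 each). In the fit of every named probe set on its own it was called lower with nilotinib and not with imatinib, at -0.76 and -0.08 (adjusted p = 8.31e-07 and 0.58). The dimmer 200874_s_at was not called with either, at -0.29 and -0.23. In that fit 13.5% of probe sets were called lower with nilotinib and 9.34% with imatinib.

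Box H/ACA particles convert uridine to pseudouridine and also form part of telomerase. NHP2, a core protein of these particles, had 2261, 2631, 2134 and 2162 with nilotinib, 3521, 4449, 3295 and 3954 with imatinib, and 6247, 6328, 6412 and 6907 with DMSO. The groups were fully separate, with log2 changes of -1.49 ± 0.09 and -0.77 ± 0.09 (adjusted p = 4.21e-11 and 8.11e-07). GAR1, which binds the catalytic subunit, averaged 885 ± 142 with nilotinib, 1035 ± 64.2 with imatinib and 1536 ± 86.9 with DMSO (SD, n = 4 each), and fell by -0.80 ± 0.10 and -0.56 ± 0.10 (adjusted p = 2.54e-06 and 2.13e-04). NOP10, the smallest core protein, had 3037, 3134, 3361 and 2635 with nilotinib, 4819, 4720, 3902 and 3912 with imatinib, and 5007, 4878, 4875 and 5348 with DMSO. Its nilotinib arrays were clearly the lowest, while the imatinib arrays lay close under the DMSO arrays, with changes of -0.73 ± 0.08 and -0.22 ± 0.08 (adjusted p = 6.77e-07 and 0.0467), the imatinib call being lost under 13 of 28 alternatives. DKC1, the pseudouridine synthase dyskerin, was covered by 3 probe sets annotated also to the small RNAs in its introns. In the fit of every named probe set on its own all 3 were called lower with both drugs. The changes were -0.69 to -0.90 with nilotinib and -0.27 to -0.64 with imatinib.

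The small-subunit factors assemble with the U3 small nucleolar RNA into the processome that cleaves the precursor. With nilotinib 11 of the 12 tested fell and with imatinib 9, where 23.5% and 17.3% of all genes were called lower. DDX10, a helicase of this machinery, had 435, 453, 434 and 383 with nilotinib, 464, 623, 450 and 517 with imatinib, and 1374, 1437, 1367 and 1221 with DMSO. Every drug-treated array was below the lowest DMSO array by a wide margin, which gave -1.63 ± 0.11 and -1.38 ± 0.11 on the log2 scale (adjusted p = 4.83e-10 and 9.02e-09). UTP14A, a processome component that in yeast activates a helicase, had 443, 553, 443 and 646 with nilotinib, 663, 577, 610 and 581 with imatinib, and 1346, 1174, 1192 and 1299 with DMSO. WDR43, a processome protein of the early assembly steps, had 450, 587, 369 and 282 with nilotinib, 504, 517, 339 and 366 with imatinib, and 1019, 1003, 903 and 950 with DMSO. For both genes the drug groups overlapped each other and stayed below DMSO. The changes were -1.26 ± 0.12 and -1.02 ± 0.12 for UTP14A (adjusted p = 3.57e-08 and 9.21e-07) and -1.21 ± 0.18 and -1.16 ± 0.18 for WDR43 (adjusted p = 1.20e-05 and 3.18e-05). IMP4, which binds the U3 particle, had 449, 522, 379 and 395 with nilotinib, 507, 555, 521 and 638 with imatinib, and 908, 1062, 934 and 971 with DMSO. All its drug arrays lay below DMSO, by -1.13 ± 0.12 and -0.79 ± 0.12 (adjusted p = 1.50e-07 and 2.27e-05).

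Of the remaining 8 small-subunit factors 7 fell with nilotinib and 5 with imatinib, against 23.5% and 17.3% of all genes. UTP18 had 1966, 1550, 1543 and 1537 with nilotinib, 2152, 2294, 1895 and 2146 with imatinib, and 3315, 3336, 3262 and 3315 with DMSO, and its changes were -1.01 ± 0.08 and -0.64 ± 0.08 (adjusted p = 7.07e-09 and 5.02e-06). Its dimmer probe set, 222038_s_at, was not called (0.32 and 0.02), and the mean of the UTP18 probe sets changed by -0.34 and -0.31. The processome scaffolds PWP2 (-1.03 with nilotinib and -0.76 with imatinib), WDR3 (-0.88 and -0.74) and NOP14 (-0.95 and -0.73) fell with both drugs, as did NAT10, which acetylates cytidine in the small-subunit RNA (-0.99 and -0.64). TBL3, a further scaffold, averaged 253 ± 60.1 with nilotinib, 281 ± 19.5 with imatinib and 365 ± 16.7 with DMSO (SD, n = 4 each), and was called with nilotinib alone, at -0.53 ± 0.16 and -0.36 ± 0.16 (adjusted p = 0.00869 and 0.0826). BYSL, bystin, needed late in small-subunit assembly, had 844, 835, 981 and 1169 with nilotinib, 1146, 1171, 1051 and 1099 with imatinib, and 1146, 1417, 1244 and 1123 with DMSO. Its groups overlapped, and it was likewise called with nilotinib alone, at -0.37 ± 0.11 and -0.14 ± 0.11 (adjusted p = 0.00676 and 0.34). Without the 4 arrays of high actin ratio neither was called with nilotinib, at -0.32 for TBL3 and -0.19 for BYSL. UTP20 averaged 285 ± 63.4 with nilotinib, 279 ± 40.4 with imatinib and 347 ± 23.8 with DMSO and did not pass with either drug (-0.29 and -0.31).

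**Figure D4:**
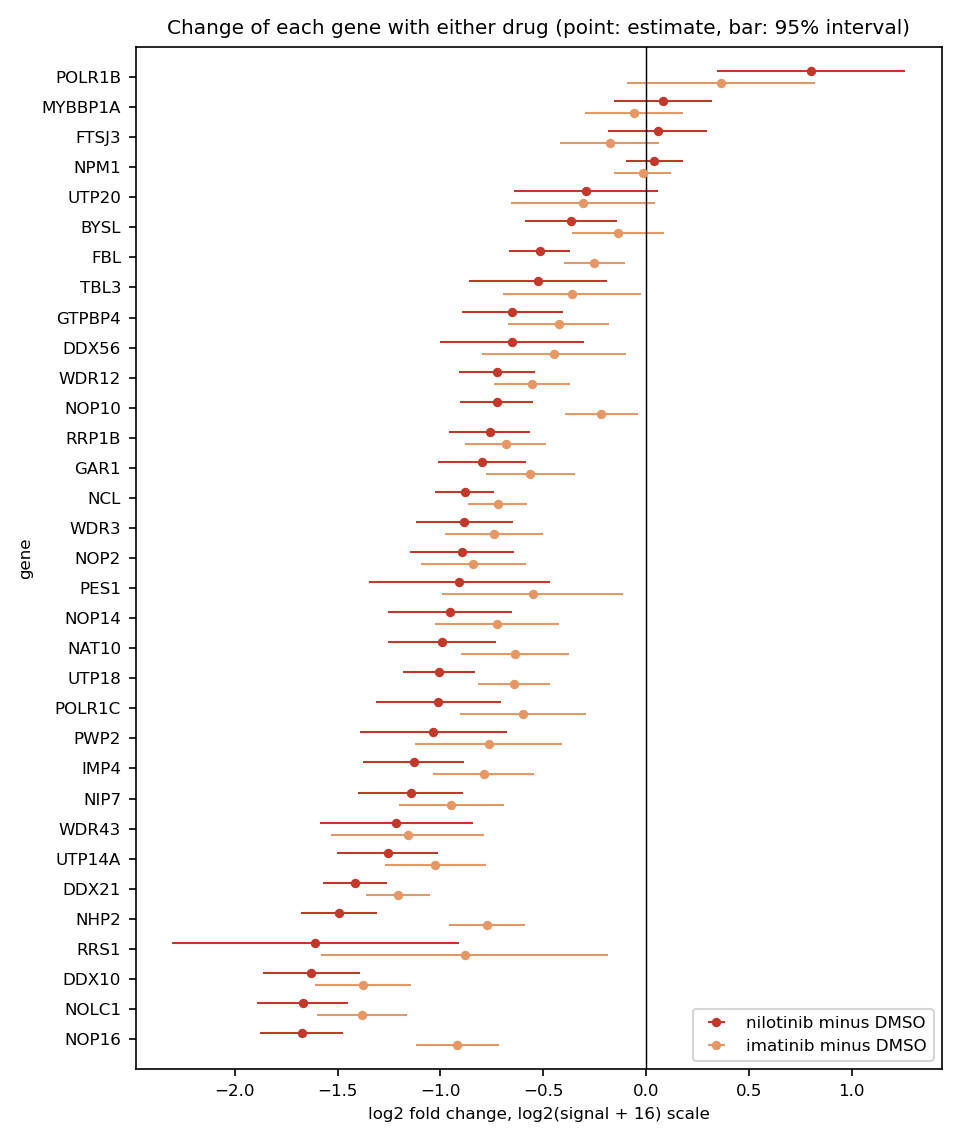
Log2 changes of the 33 tested members with 95% confidence intervals, ordered by the nilotinib value, for nilotinib minus DMSO and imatinib minus DMSO. Intervals lie below 0 for most genes with both drugs, and POLR1B is above 0 with nilotinib.

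The PeBoW complex of PES1, BOP1 and WDR12 processes the precursor of the large-subunit RNAs. WDR12 had 1464, 1491, 1524 and 1629 with nilotinib, 1941, 1493, 1591 and 1906 with imatinib, and 2623, 2452, 2721 and 2358 with DMSO. The DMSO arrays were all above the drug arrays, and the changes were -0.73 ± 0.09 and -0.55 ± 0.09 (adjusted p = 1.15e-06 and 4.62e-05). PES1, pescadillo, was dim, with 243, 114, 218 and 197 with nilotinib, 219, 221, 322 and 222 with imatinib, and 299, 375, 411 and 379 with DMSO. Its nilotinib arrays lay below DMSO and 1 imatinib array reached into the DMSO range, with changes of -0.91 ± 0.21 and -0.55 ± 0.21 (adjusted p = 0.00116 and 0.0434), the imatinib call being lost under 9 of 28 alternatives. BOP1 was covered by probe sets annotated also to a microRNA. In the fit of every named probe set on its own these were called in opposite directions with nilotinib. The first, 212563_at, averaged 318 ± 48.5 with nilotinib, 330 ± 70.2 with imatinib and 571 ± 77.4 with DMSO, and was called lower with both (-0.82 and -0.78, adjusted p = 8.07e-04 and 0.0019). The second, 216397_s_at, averaged 487 ± 59.7, 335 ± 73.3 and 240 ± 91.3 in that order and was called higher with nilotinib (1.04, adjusted p = 0.00153) and not with imatinib (0.50, adjusted p = 0.137), where 28.5% and 12.0% of all named probe sets were called higher.

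Of the 8 other large-subunit factors tested, 7 fell with each drug, against 23.5% of all genes with nilotinib and 17.3% with imatinib. NOP16, a nucleolar protein whose gene is a known MYC target, had 457, 543, 448 and 471 with nilotinib, 906, 733, 785 and 862 with imatinib, and 1636, 1585, 1567 and 1464 with DMSO. The 3 groups were fully separate in that order, with changes of -1.67 ± 0.10 and -0.92 ± 0.10 (adjusted p = 3.13e-11 and 2.80e-07). RRS1, which brings the 5S particle into the large subunit in yeast, had 567, 98.8, 457 and 539 with nilotinib, 634, 548, 611 and 554 with imatinib, and 1058, 998, 1203 and 1125 with DMSO. It was lower on every drug array, and 1 nilotinib array of 98.8 set much of its change of -1.61 ± 0.33 (adjusted p = 4.44e-04). Without that array, replicate 2, the value was -1.05 (adjusted p = 3.55e-07). Its change with imatinib was -0.88 ± 0.33 (adjusted p = 0.0418), and that call was lost under 14 of 28 alternatives. NIP7, a factor of large-subunit RNA processing, had 858, 758, 796 and 710 with nilotinib, 898, 1181, 904 and 671 with imatinib, and 1778, 1789, 1709 and 1689 with DMSO. Its drug groups overlapped each other well below DMSO, at -1.15 ± 0.12 and -0.95 ± 0.12 (adjusted p = 2.34e-07 and 4.56e-06).

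NOP2, a methyltransferase of the large-subunit RNA, had 603, 545, 433 and 572 with nilotinib, 575, 559, 495 and 600 with imatinib, and 1003, 1158, 1047 and 846 with DMSO. The drug groups were alike in range and below DMSO, at -0.90 ± 0.12 and -0.84 ± 0.12 (adjusted p = 4.90e-06 and 1.66e-05). The helicase DDX56 was called lower with both drugs (-0.65 and -0.45, adjusted p = 0.00275 and 0.0404), the imatinib call being lost under 11 of 28 alternatives. GTPBP4, a GTPase of the growing large subunit, was also lower with both (-0.65 and -0.43), and 218238_at was called lower too. Its remaining probe set, 217631_at, went the other way without being called, with 315, 330, 280 and 264 with nilotinib, 249, 240, 300 and 218 with imatinib, and 247, 230, 198 and 221 with DMSO (0.38 and 0.15). All of its nilotinib arrays lay above DMSO, and with the mean of the GTPBP4 probe sets the nilotinib change was -0.36. RRP1B, whose yeast relative acts in large-subunit assembly, was lower on its brighter probe set (-0.76 and -0.68) and with the mean of its probe sets was called with neither drug (-0.41 and -0.17). FTSJ3, a methyltransferase acting on precursor RNA, averaged 664 ± 108 with nilotinib, 558 ± 38.1 with imatinib and 632 ± 29.3 with DMSO and was not called (0.06 and -0.18), with a nilotinib value of -0.47 after median centring. PPAN, needed for large-subunit maturation, was covered by a probe set that also reads its fusion transcript with P2RY11. In the fit of every named probe set on its own this probe set was called lower with both drugs (-1.44 and -0.85, adjusted p = 4.70e-05 and 0.00861).

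The members just below the filter were brightest with DMSO. RRP12, in yeast an export factor of the subunits, had 40.5, 35.4, 37.1 and 29.3 with nilotinib, 24.8, 23.2, 26.5 and 53.3 with imatinib, and 327, 398, 364 and 272 with DMSO on 216913_s_at. The unfiltered fit gave it -2.78 ± 0.31 and -2.92 ± 0.31 (adjusted p = 1.64e-06 and 1.52e-06), but its other probe sets, 216360_x_at and 216909_at, overlapped between groups and were not called. RRP9, a protein of the U3 particle, had 17.0, 47.4, 53.7 and 22.1 with nilotinib, 103, 47.5, 34.0 and 88.8 with imatinib, and 166, 177, 144 and 222 with DMSO. The unfiltered fit called it lower with both, at -1.98 ± 0.38 and -1.27 ± 0.38 (adjusted p = 4.62e-04 and 0.0209). The filter stood at a mean log2 value of 6.59, where RRP12 had 6.56 and RRP9 6.50, and the dimmest member inside it was PES1 at 8.08. These 2 genes are not counted among the 33.

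The drugs were also set against each other, at doses that differ. Estimates for nilotinib minus imatinib were below 0 in 28 of 33 members, where 42.9% of all genes were below 0, and the median was -0.23 against 0.05 for all genes. Of the 33 members 5 (15.2%) were called lower with nilotinib than with imatinib, and 0 higher, where 8.22% and 5.82% of all genes were called. They were NOP16 (-0.76 ± 0.10, adjusted p = 6.59e-05), NHP2 (-0.72 ± 0.09, adjusted p = 4.55e-05), NOP10 (-0.51 ± 0.08, adjusted p = 7.96e-04), UTP18 (-0.37 ± 0.08, adjusted p = 0.00785) and FBL (-0.26 ± 0.07, adjusted p = 0.019). A difference that was not called is not shown to be absent. In 3 members chosen after their values were seen, the 95% interval of the difference was -0.31 to 0.20 for NOP2, -0.43 to 0.32 for WDR43 and -0.27 to 0.12 for RRP1B. Arrays of nilotinib were all below those of imatinib for 4 members and all above for 1, POLR1B, against 8.54% and 9.50% of all genes. The NOP16 call was lost when only probe sets without an _x_at or _s_at suffix were used (-0.26), and the UTP18 call with the mean of its probe sets (-0.03) or a minimum change. The FBL call was lost under 5 alternatives, including quantile normalization, cyclic loess and leaving out nilotinib replicate 4. Median centring raised the count of members called lower to 27.

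**Figure D5:**
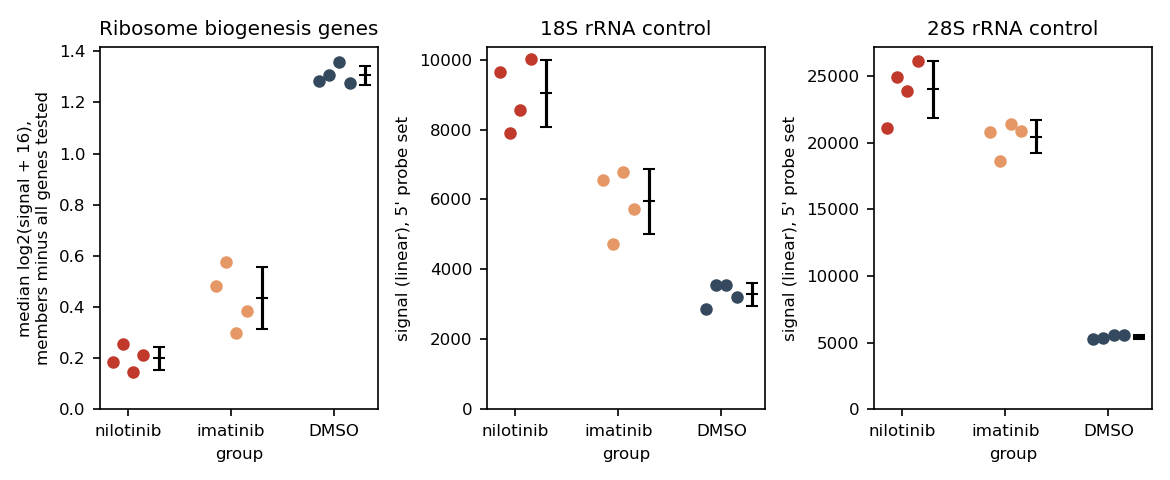
Median log2 signal of the 33 members minus the median of all tested genes on each array, beside the control probe sets for 18S and 28S ribosomal RNA, for nilotinib, imatinib and DMSO arrays, with a point for each array and bars for the mean and SD. The member medians stand 0.199 above the median gene with nilotinib, 0.435 with imatinib and 1.31 with DMSO.

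On each array the members as a group stood closer to the median gene after treatment. Their median log2 signal exceeded that of all tested genes by 0.199 ± 0.0452 with nilotinib, by 0.435 ± 0.121 with imatinib and by 1.31 ± 0.0362 with DMSO (SD, n = 4 each). Their summed signal was 0.567%, 0.626% and 0.885% of the summed signal of the tested genes in the same order. The array's control probe sets for the 5' ends of ribosomal RNA were higher with either drug. Whether these control signals follow the amount of ribosomal RNA in the cells was not tested. For 18S the 5' control averaged 9035 ± 972 with nilotinib, 5950 ± 934 with imatinib and 3293 ± 329 with DMSO. For 28S it averaged 24015 ± 2137, 20453 ± 1241 and 5431 ± 135. In the same order, the middle of 18S averaged 6352, 4921 and 2786, and its 3' end 13071, 9324 and 4018. The middle of 28S averaged 4959, 4845 and 1509. The probe set for the 3' end of 28S was dim and overlapped between groups, at 76.9 to 206 with nilotinib, 35.6 to 97.2 with imatinib and 32.4 to 141 with DMSO. The part of these controls in the member values was not tested.

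The pathway's other genes were also more often lower than higher with either drug. Of 118 further genes of the pathway, 88 were tested. With nilotinib 56 fell and 4 rose, where 23.5% of all genes were called lower and 34.7% higher. With imatinib 45 fell and 3 rose, where the shares of all genes were 17.3% and 22.0%. The median log2 changes of the 88 were -0.46 and -0.35, where those of all genes tested were 0.15 and 0.09. Of the other large-subunit factors 23 of 31 fell with nilotinib and 19 with imatinib, led by MAK16 (-1.74 and -1.75). The next largest fall was that of MRTO4 with nilotinib (-1.45 and -0.96) and that of NLE1 with imatinib (-1.35 and -1.32). Without _x_at and _s_at probe sets the NLE1 fall with nilotinib was not called (-0.43). Among the other small-subunit factors 16 of 28 fell with nilotinib and 11 with imatinib, including PNO1 (-1.52 and -1.24) and UTP6 (-1.34 and -0.89). RCL1 rose with both (0.53 and 0.57), calls that median centring removed (0.0049 and 0.35). TSR2 was called higher with nilotinib alone (0.37 and 0.12), and that call was kept under 12 of 28 alternatives. Of the 8 assembly factors of small nucleolar particles 6 fell with each drug. Among them were the paired ATPases RUVBL1 (-1.32 and -0.83) and RUVBL2 (-1.52 and -1.07), and ZNHIT6 (-0.91 and -0.89). Of 11 genes of the exosome, which trims precursor RNA, 6 and 5 fell. EXOSC5 fell by -1.79 and -0.88, and EXOSC4 by -1.09 and -0.94.

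Of 10 further genes of polymerase I transcription, 5 fell and 2 rose with nilotinib, where 23.5% of all genes were called lower and 34.7% higher. With imatinib 4 fell and 2 rose, where 17.3% and 22.0% of all genes did, so the rises were no more frequent than among all genes. POLR1E averaged 460 ± 57.7 with nilotinib, 536 ± 77.1 with imatinib and 940 ± 57.3 with DMSO and fell by -1.01 ± 0.12 and -0.80 ± 0.12. POLR1G fell by -0.95 and -0.51, and TAF1A was called lower with nilotinib alone (-0.96 and -0.39). The higher genes were UBTF, which encodes the activator of ribosomal DNA, and TAF1D, a subunit of the promoter selectivity factor. UBTF averaged 297 ± 97.5 with nilotinib, 296 ± 43.1 with imatinib and 141 ± 23.9 with DMSO, and rose by 0.95 ± 0.22 and 0.99 ± 0.22 (adjusted p = 0.00101 and 0.00114), the nilotinib call being lost with median centring (0.43) and quantile normalization (0.55). TAF1D averaged 473 ± 83.7, 370 ± 17.1 and 243 ± 31.3 in that order and rose by 0.90 ± 0.15 and 0.58 ± 0.15 (adjusted p = 4.63e-05 and 0.00425). With median centring TAF1D changed by 0.38 with nilotinib and by 0.36 with imatinib, the second no longer called. Means are given with their SD and n = 4 each.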

How the data were processed

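Titles placed the 12 arrays in 3 groups, and 0 columns stayed without a sample. The deposited values are linear intensity signals from MAS5, as the submitters' processing notes have it, and the version of the software is not given in the sources used here. MAS5 subtracts a local background and scales each array by 1 factor. Differences in background can therefore stay in dim probe sets, and differences in RNA composition in probe sets of any brightness. Analyses used log2(signal + 16). Of 22277 probe sets, 62 controls were left out, 19064 named 1 gene, 1043 several and 2108 none. Probe sets naming 1 gene with a mean above the 40th percentile (signal 80.6) were kept, and the one with the highest mean was used per gene, which left 8021 genes.

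All 3 groups entered a single limma fit (version 3.58.1, R 4.3.3) that let the variance follow intensity and had 9 residual degrees of freedom. Benjamini-Hochberg adjustment ran over all genes in each of 3 comparisons. The median standard error of a log2 change was 0.146. A second fit took each of 20107 named probe sets alone without a filter, an alternative chosen after seeing the data. The rule for named genes covered the called members of largest change, members called higher, the snoRNP, polymerase I and PeBoW genes, NCL and NPM1, members called between the drugs, and up to 2 called genes per direction of each other list. Members outside it are given so that all 33 are accounted for. The members and lists were chosen with earlier results of these data known. The limma fit was tested on simulated data. Promoter windows were RefSeq's, on GRCh38.p14, and motifs were searched in Python 3.11.15. Figures were drawn with matplotlib 3.10.9. Protein sequences were not used here. The alternatives tried were other pseudocounts, filters, normalizations, probe set rules and variance models, weighting of arrays, fits of 2 groups alone, a minimum change, and arrays left out. The probe set rule that kept probe sets naming several genes was added after seeing the data.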

Additional observations from a re-analysis of the deposited data

Results flagged for a closer look

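In a few members 1 array stood apart from the other 3 of its group. POLR1B had 618 on nilotinib replicate 2, where the others had 438 to 468. UTP18 had 1966 on nilotinib replicate 1, where the others had 1537 to 1550. PES1 had 322 on imatinib replicate 7, above 219 to 222 on the others, and WDR3 had 719 on imatinib replicate 6, above 526 to 540. DDX21 had 5912 on DMSO replicate 12, below 6289 to 6350. These are 5 of 99 groups of 4 arrays examined, and chance sets apart about 1 in 20 groups.

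The drugs' effects differed from each other, by the limma test of nilotinib against imatinib, for NOP16 (-0.76), NHP2 (-0.72), NOP10 (-0.51), UTP18 (-0.37) and FBL (-0.26), all lower with nilotinib. The NOP16 call was lost without _x_at and _s_at probe sets (-0.26), the UTP18 call with the mean of its probe sets (-0.03), and the FBL call under 5 alternatives. The doses of the drugs differ as well.

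The control probe sets for ribosomal RNA enter none of the tests, and whether they follow the amount of ribosomal RNA in the cells was not tested. The 5' control of 18S averaged 9035 with nilotinib and 5950 with imatinib, against 3293 with DMSO, and that of 28S averaged 24015 with nilotinib and 20453 with imatinib, against 5431 with DMSO.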

How the results depend on the processing

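The counts of members called lower stayed within 1.5 times of those reported under all 28 alternatives, at 19 to 32 for nilotinib and 18 to 31 for imatinib against DMSO. No call was lost in any alternative that tested the gene for 25 of the 29 nilotinib calls, 19 of the 26 imatinib calls and 2 of the 5 calls between the drugs (NHP2 and NOP10). With median centring no member was higher with nilotinib (0), the member medians were -1.42 and -0.87 for nilotinib and imatinib against DMSO and -0.52 between the drugs, 27 members were lower with nilotinib than with imatinib, and nilotinib changes turned negative for NPM1 (-0.48 against DMSO and -0.24 against imatinib), MYBBP1A (-0.44), FTSJ3 (-0.47), TSR2 (-0.16) and MXI1 (-0.00743). Averaging the probe sets of each gene gave NPM1 -0.40 with nilotinib and an imatinib median of -0.56. Cyclic loess gave 2 members higher with nilotinib than with DMSO and 1 higher than with imatinib. Without _x_at and _s_at probe sets, which left 22 members, 0 were higher with nilotinib and 1 was lower with nilotinib than with imatinib. A minimum change of 0.5 left 3 members lower between the drugs. Without the 4 arrays of high actin ratio 0 were higher with nilotinib, its median was -0.98, and 9 were lower than with imatinib. Leaving out each array in turn gave medians of -0.95 to -0.84 with nilotinib, 0 to 1 members higher with imatinib (1 without DMSO replicate 10), and 5 to 9 lower with nilotinib than with imatinib (9 without nilotinib replicate 2). The causes were not tested. No paired analysis was possible because the groups share no replicate numbers. The comparison of protein sequences was not run. The signal over background limits dim members such as PES1, RRP12 and RRP9.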

Other observations

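MYC, whose signal averaged 2918 ± 127 with nilotinib, 4665 ± 792 with imatinib and 11063 ± 1058 with DMSO (SD, n = 4 each), fell, with log2 changes of -1.91 ± 0.10 and -1.25 ± 0.10 (limma adjusted p = 4.90e-12 and 3.75e-09). Of the 8 tested genes of the MYC network 3 fell and 3 rose with each drug, where 23.5% of all genes were called lower and 34.7% higher with nilotinib, and 17.3% and 22.0% with imatinib. Besides MYC, MGA was called lower with nilotinib alone (-0.52 ± 0.14 and -0.33 ± 0.14, adjusted p = 0.00371 and 0.0649). MLX was called lower with imatinib alone (-0.18 ± 0.10 and -0.50 ± 0.10, adjusted p = 0.122 and 4.23e-04). MXD3 and MXI1, which compete with MYC for MAX, rose. MXD3 averaged 328 ± 104 with nilotinib, 260 ± 81.0 with imatinib and 84.8 ± 45.4 with DMSO, a change of 1.85 ± 0.33 and 1.52 ± 0.33 (adjusted p = 1.06e-04 and 0.00108). MXI1 averaged 1582 ± 59.6, 1614 ± 90.1 and 1103 ± 67.6 in that order, a change of 0.52 ± 0.08 and 0.54 ± 0.08 (adjusted p = 1.40e-05 and 1.22e-05), which was -0.00743 with nilotinib after median centring. MLXIP rose by 0.75 ± 0.10 and 0.35 ± 0.10 (adjusted p = 4.80e-06 and 0.00973), and neither MLXIP call held with median centring (0.22 and 0.12).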
